A study of Mus musculus with 6 samples.

Results

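The genes described here are 10 transcription factors known from the reprogramming of somatic cells to pluripotency and from the pluripotent state itself: Klf4, Klf2, Myc, Mycn, Sox2, Pou5f1, Nanog, Esrrb, Zfp42 and Glis1. They were chosen by name, with earlier results of these data known, and all 10 were found among the 21485 genes that the 6 libraries share. The libraries hold single-cell RNA-seq of mouse muscle-derived stem/progenitor cells (MDSPCs), which were enriched from skeletal muscle as slowly adhering cells by serial replating and were kept in proliferation medium with serum and chick embryo extract. Young mice gave 3 of the populations and old mice the other 3, each made into a 10x Genomics 3′ library, with no treatment and no genetic change named for either group. The age in months, sex and strain were not given in the sources used here, nor whether a population came from 1 animal or several. P-values therefore measure only the spread between these samples, part of which may be technical.

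In each library 8674 to 12541 cells were kept, 61673 in all, with a median of 13001 to 19951 unique molecular identifiers (UMIs, each a tagged RNA molecule) per cell. The library totals in the shared genes ran from 133608357 to 193380549 UMIs. Levels are given as CPM, the UMIs of a gene per 1000000 UMIs of its library in the shared genes. At these depths 3 counts, taken as the detection limit, correspond to 0.0155 to 0.0225 CPM. The muscle regulators Myod1 and Myog were present in every library, with at least 6787 and 946 counts, and Pax7 ranged from 5 to 10686 counts. Myf5 ranged from 1 to 9889 counts, Des from 508 to 78384 and Msc from 1 to 28. The 10 myogenic markers summed to 414.8, 2235.4 and 429.6 CPM in young libraries and 341.3, 1726.6 and 3533.2 CPM in old ones. Of 8 immune markers 4 to 6 were above the limit in a library, with summed levels of 10.8 to 27.9 CPM in young and 6.79 to 31.6 CPM in old libraries. Cd14, with 839 to 4809 counts, alone stood at 4.59 to 25.5 CPM of these sums. Ptprc reached at most 0.0528 CPM and Adgre1 0.0507 CPM, and Tyrobp was at 0 in all 6. Of 8 glial markers 5 to 7 were above the limit, with Ngfr at up to 3840 counts and Sox10 at no more than 3. Pairs of libraries shared 24 to 41 cell barcodes, at most 0.375% of the smaller library. Young replicate 1 and old replicate 1 were counted against a shorter gene list than the other 4 libraries.

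Klf4, Klf2 and Myc are broadly used growth and stress regulators as well as reprogramming factors. Klf4 and Klf2 are zinc-finger proteins that bind GC-rich and CACCC sequences, and both are known to be controlled by MEF2 factors. Myc and its relative Mycn bind E-boxes with the partner Max and drive ribosome and nucleotide synthesis in dividing cells. Sox2 and Pou5f1 (Oct4) bind DNA together and activate Nanog, while the orphan receptor Esrrb and the zinc-finger protein Zfp42 (Rex1) belong to the naive pluripotent state. Glis1, a Gli-similar zinc-finger protein of the egg and early embryo, can take the place of Myc in reprogramming.

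The proximal promoters of 3 of these genes are shown because Klf4 and Klf2 stood for the expressed members and Nanog for those at the detection limit. RefSeq (GRCm38.p6) had a promoter entry for 9 of the 10 genes, all but Myc. Each line gives 220 bases on the gene's own strand, ending 30 bases before the annotated start: Klf4 at chr4:55532506-55532725 on the minus strand, Klf2 at chr8:72318812-72319031 on the plus strand and Nanog at chr6:122707239-122707458 on the plus strand. Capitals mark GC boxes (GGGCGG on either strand) in Klf4 and Klf2, the MEF2 site in Klf2, and in Nanog the composite site for Sox2 with Pou5f1 (CATTGT and, 1 base on, ATGCAAA, here on the opposite strand).
Klf4: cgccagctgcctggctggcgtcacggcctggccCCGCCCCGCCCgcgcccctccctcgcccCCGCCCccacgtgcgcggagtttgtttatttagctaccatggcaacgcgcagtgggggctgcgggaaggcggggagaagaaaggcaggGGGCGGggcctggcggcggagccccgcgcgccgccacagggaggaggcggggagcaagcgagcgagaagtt
Klf2: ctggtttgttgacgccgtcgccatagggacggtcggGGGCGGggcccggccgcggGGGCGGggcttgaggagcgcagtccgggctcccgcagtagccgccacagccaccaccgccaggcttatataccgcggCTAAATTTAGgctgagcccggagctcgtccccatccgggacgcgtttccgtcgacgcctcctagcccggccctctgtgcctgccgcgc
Nanog: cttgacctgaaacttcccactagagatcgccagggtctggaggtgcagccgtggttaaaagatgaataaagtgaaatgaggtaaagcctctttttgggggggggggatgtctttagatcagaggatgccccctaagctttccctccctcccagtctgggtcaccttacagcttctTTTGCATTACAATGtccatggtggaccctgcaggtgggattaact
Klf4 held 4 GC boxes in this window and Klf2 held 2. At their first listed starts Mycn, Sox2, Zfp42 and Glis1 also held 2 each, Pou5f1 held 1, and Esrrb and Nanog held 0. Of 32851 promoter entries of all genes 28.5% held at least 1 on either strand. A MEF2 site was found in 2.60% of the entries, Klf2 among them. The composite site was found in 2 entries, which are 0.00609% of all and are both starts of Nanog. CpG dinucleotides stood at 0.855 of their expected number in the Klf4 window and 1.00 in that of Klf2. They stood at 0.144 in the first window of Nanog, and the median of all entries was 0.367. At the first listed start of each, the other windows held 0.942 for Glis1, 0.877 for Sox2, 0.543 for Mycn, 0.376 for Pou5f1, 0.363 for Zfp42 and 0.243 for Esrrb. These are matches of letters in a window and no measure of binding.

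The counts fell into tiers. Klf4, Klf2 and Myc were above 1 CPM in all 6 libraries. Esrrb and Glis1 were above the limit in all 6 but under 1 CPM in 2 and 3 of them. Pou5f1 stayed under 1 CPM in all 6 and was at the limit in 1, while Mycn, Sox2, Nanog and Zfp42 were at or under the limit in 3, 4, 4 and 6 libraries.

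**Figure D1:**
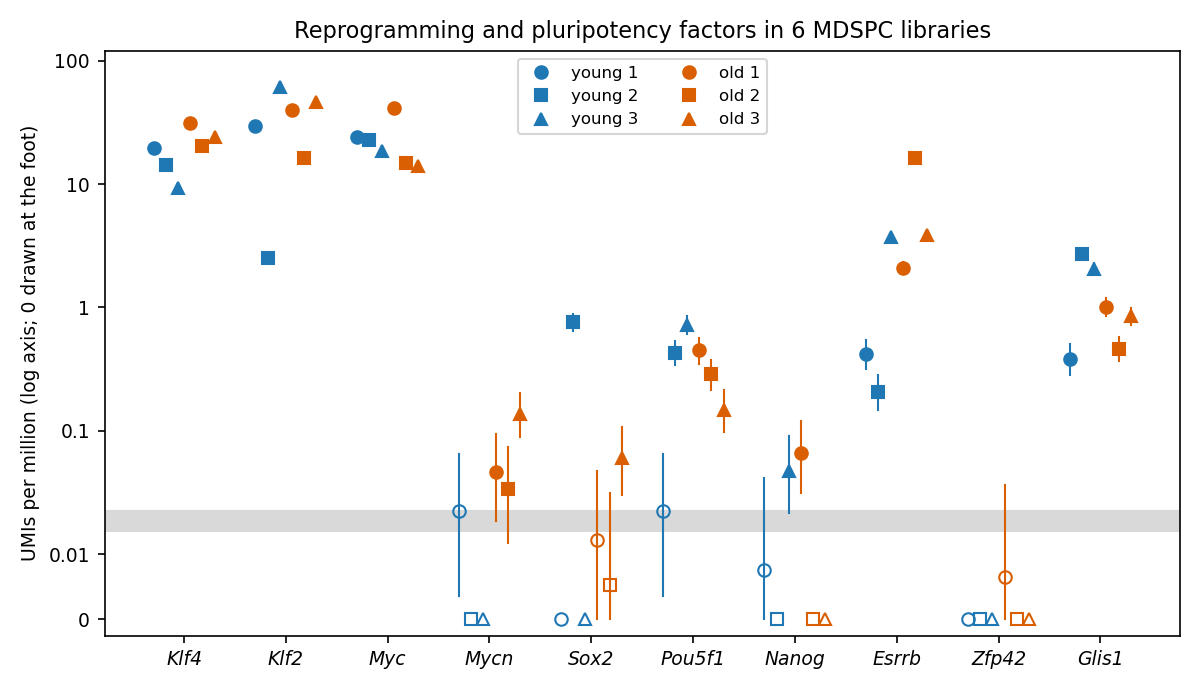
Level of each of the 10 genes in each library, in CPM on a log axis, with bars for the exact 95% Poisson interval, which covers counting error only. Open symbols are counts of 3 or fewer, symbols at the foot are counts of 0, and the grey band is the range of the detection limit over libraries. Klf4, Klf2 and Myc lie between 2.53 and 61.1, and Zfp42 is at 0 in 5 of 6 libraries.

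Klf4 (ENSMUSG00000003032, GRCm38 chr4:55527143-55532466, minus strand) was higher in CPM in each old library than in any young one. It had 2619, 2753 and 1737 counts in young replicates 1, 2 and 3, or 19.6, 14.2 and 9.20 CPM. In old replicates 1, 2 and 3 it had 4740, 3636 and 4426 counts, or 31.3, 20.5 and 24.2 CPM. The lowest old library lay just above the highest young one. These levels were scaled by library totals only. The fits of old against young below also used TMM scaling factors, 0.848 for young replicate 1 and 1.04 for old replicate 2. Divided by them, the level of young replicate 1 lies above that of old replicate 2, so the groups overlap. A UMI of Klf4 was found in 22.4%, 19.1% and 12.5% of young cells and in 29.9%, 27.7% and 24.0% of old cells. The most UMIs in a single cell were 15, in old replicate 3. In young replicate 2 the 38 measured genes within 5 Mb of Klf4 had a median shift of 0.58 on the log2 scale from their means over the libraries, while Klf4 was shifted by −0.36.

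Klf2 (ENSMUSG00000055148, chr8:72319033-72321656, plus strand) varied most among the 3 well detected members. It had 3905, 489 and 11544 counts in the young libraries, which is 29.2, 2.53 and 61.1 CPM. The old libraries had 6002, 2876 and 8464 counts, which is 39.6, 16.2 and 46.3 CPM. The young libraries held both the highest and the lowest level, 24.2-fold apart. In young replicate 2, the low one, 3.96% of cells had a UMI, against 19.4% to 48.1% in the other 5. The 120 measured genes within 5 Mb of Klf2 had a median shift of −0.03 on the log2 scale in young replicate 2, where Klf2 itself was shifted by −2.80 from its mean over the libraries.

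Myc (ENSMUSG00000022346, chr15:61985391-61990374, plus strand) was at 3196, 4357 and 3499 counts in the young libraries, or 23.9, 22.5 and 18.5 CPM. The old libraries had 6218, 2636 and 2550 counts, or 41.1, 14.8 and 14.0 CPM. All 3 young values fell inside the old range, and old replicate 1 alone lay above them. The share of cells with a UMI of Myc was 27.1%, 28.2% and 24.5% in young libraries and 39.5%, 21.6% and 15.9% in old ones. No sampled cell type was known to lack these genes, so barcodes under 1000 UMIs and genes of other tissues were looked at for background. The 801 barcodes under 1000 UMIs held 4 counts of Klf4, 5 of Klf2 and 9 of Myc, or 7.18, 8.98 and 16.2 CPM of their pooled UMIs. All deposited barcodes were called ones with at least 500 UMIs, so these may be cells. With so few counts, they set no level of background. Of 20 genes chosen as typical of other tissues, 16 had at most 12 counts in any library, or 0.0823 CPM. The other 4 reached 6.34 CPM (Apoa2), 9.49 CPM (Lor), 10.4 CPM (Sag) and 47.5 CPM (Krt10), so these genes set no ceiling for background.

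Esrrb (ENSMUSG00000021255, chr12:86361117-86521628, plus strand) had 56, 40 and 708 counts in the young libraries and 318, 2890 and 712 in the old ones. These were 0.419, 0.207 and 3.75 CPM against 2.10, 16.3 and 3.90 CPM. Old replicate 2 stood above all others, and young replicate 3 lay between the old values, so that the groups overlapped. In old replicate 2 a UMI of Esrrb was found in 2101 cells, 24.1% of that library. The barcodes under 1000 UMIs held 5 counts of Esrrb, or 8.98 CPM of their pooled UMIs, and 4 of these counts lay in old replicate 2, where they came to 49.6 CPM. Of the 2101 cells with a UMI 69.8% were called G1, against 61.4% of the 6624 cells without one. Cells with RNA of Myog and of sarcomere genes, called differentiating, made up 18.1% of them against 11.5%. The cells with a UMI were also deeper, with a median of 21639 UMIs against 19282.5, and the part of depth in these shares was not tested. The 81 genes within 5 Mb of Esrrb were shifted by 0.02 on the log2 scale in that library, against 2.23 for Esrrb itself.

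Glis1 (ENSMUSG00000034762, chr4:107434591-107635061, plus strand) had 51, 520 and 390 counts in young libraries and 153, 82 and 155 in old ones. The levels were 0.382, 2.69 and 2.07 CPM in the young libraries and 1.01, 0.462 and 0.849 CPM in the old. Young replicates 2 and 3 lay above every old library and young replicate 1 below every one. At most 4.40% of the cells of a library had a UMI.

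Pou5f1 (ENSMUSG00000024406, chr17:35506018-35510772, plus strand) was found at 3, 83 and 137 counts in young libraries and 68, 51 and 27 in old ones. Its highest level was 0.725 CPM, with a 95% Poisson interval of 0.609 to 0.858, in young replicate 3. There its 137 counts lay in 137 cells, and an even spread over cells by depth would give 136.0. No cell of any library held more than 2 UMIs of it. The counts of Pou5f1 and of Nanog are uncertain, because mouse has near-identical pseudogene copies of both and how the counting shared reads between copies is not given in the sources used here.

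Sox2 (ENSMUSG00000074637, chr3:34650405-34652461, plus strand) was seen almost entirely in a single library. It had 0, 147 and 0 counts in the young libraries and 2, 1 and 11 in the old ones, so that 4 of 6 were at the limit. The 147 counts of young replicate 2 were 0.760 CPM, with an interval of 0.642 to 0.893. They lay in 118 cells, 1.09% of that library, with up to 4 UMIs in a cell, where an even spread by depth would give 145.8 cells. For the libraries with 0 counts, the limit allows up to 0.0346% of cells with a UMI in young replicate 1 and 0.0278% in young replicate 3.

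The Sox2-positive cells of young replicate 2 were called G2/M in 58.5% of cases (Wilson 95% interval 49.5% to 67.0%), against 40.9% of the 10688 other cells. Differentiating cells made up 13.6% of them against 18.4%. The interval covers the sampling of cells within 1 library only, and these shares were not tested between samples. Their median depth was 18793.5 UMIs against 16423, and its part in these shares was not tested. Sox2 is known from glial as well as pluripotent cells. Summed glial markers reached 26.3 CPM in young replicate 2 and 1.15 to 5.90 CPM elsewhere, with 5 of 8 markers above the limit there and Sox10 at or under it in all 6 libraries. Ngfr alone made up 19.9 of the 26.3 CPM and was at 0.0329 to 1.23 CPM elsewhere. Summed mural markers, of vessel-wall cells, were also highest there, at 92.3 CPM against 14.7 to 45.1, with 6 of 7 above the limit. Notch3 alone made up 68.3 of the 92.3 CPM and was at 1.47 to 42.0 CPM elsewhere. The part of either in the Sox2 counts was not tested. Sox2 lies inside the noncoding gene Sox2ot on the same strand, so reads of both cannot be separated by strand.

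Mycn (ENSMUSG00000037169, chr12:12936093-12941914, minus strand) had 3, 0 and 0 counts in young libraries and 7, 6 and 25 in old ones. All 3 young libraries were at or under the limit and all old ones were above it, without overlap. Among the tested genes, which Mycn was too low to enter, 5.93% had no overlap. The highest library, old replicate 3, reached only 0.137 CPM, and no cell held more than 1 UMI. Nanog (ENSMUSG00000012396, chr6:122707489-122714633, plus strand) had 1, 0 and 9 counts against 10, 0 and 0. The 10 counts of old replicate 1 lay in 3 cells, with 8 in a single cell. Zfp42 (ENSMUSG00000051176, chr8:43295063-43306980, minus strand) gave 1 count in all 6 libraries together, in old replicate 1.

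Several factors were also sought in the same cell. Klf4 and Myc were found together in 4415 of 61673 cells, 7.16%, and in 3.87% to 13.2% of the cells of a library. Pou5f1 and Sox2 were found together in 4 cells, all of young replicate 2. Klf4, Myc, Pou5f1 and Sox2, the factors of the first reprogramming cocktail, were all found in 1 cell. Nanog was found in no cell with Sox2 or with Pou5f1, which allows a share of up to 0.00486% of cells with both UMIs. A UMI of Nanog was found in only 12 cells, of Sox2 in 131 and of Pou5f1 in 365. This absence was thus likely from the start and does not show whether these genes go together. The number of joint cells expected from the separate shares was not computed for any of these sets.

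The comparison of old with young populations, which the study design names, was fitted to the summed counts of each library. None of the 6 members that passed the filter on low counts was called by the quasi-likelihood test of edgeR, with p-values adjusted (Benjamini-Hochberg) over 14512 genes. Across all genes it called 1, which is 0.00689% of those tested and no member, and 512 had an unadjusted p under 0.05. By DESeq2 219 genes were called, again with no member among them. Mycn, Sox2, Nanog and Zfp42 did not pass the filter and were not tested.

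For Klf4 the mean was 14.3 ± 5.20 CPM (SD, n = 3) in young and 25.3 ± 5.50 CPM (n = 3) in old populations. The fitted log2 fold change was 0.76 (SE 0.31), with an unadjusted p of 0.0544 and an adjusted p of 1.00 by edgeR. In CPM by library totals, Klf4 was 1 of 6 tested members without overlap of the groups. Of all tested genes 5.93% had none, 5.02% with the old libraries higher and 0.903% with them lower. With the TMM factors of the fit the groups overlapped for Klf4, and these shares of all genes were not computed. Of 12 other Klf genes tested, none called by edgeR, 3 had no overlap in CPM, and these were named after their values were seen. Klf5 (log2 fold change 0.92, SE 0.22) and Klf10 (0.49, SE 0.27) had the old libraries higher, with unadjusted edgeR p of 0.00649 and 0.121 and adjusted p of 1.00 for both. Klf5 was at 24.3 CPM in young replicate 1 and 27.1 CPM in old replicate 2. With the TMM factors of these libraries its groups overlap too. Klf12 (−2.05, SE 0.27) had them lower, with an unadjusted edgeR p of 0.000343 and an adjusted p of 0.347. For Klf4 the difference was 0.50 to 0.99 over 15 alternative settings, and 0.77 in G1 cells alone. Within the shorter gene list the old library exceeded the young one by 31.3 to 19.6 CPM, and within the longer list the fitted difference was 0.99 (SE 0.37). The share of cycling cells, in which Klf4 was higher, was 50.8%, 58.5% and 82.8% in young libraries and 69.3%, 36.6% and 59.2% in old ones, so the groups overlapped in it.

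Esrrb had the largest fitted difference of the members, at a log2 fold change of 2.26 (SE 1.08) and an edgeR adjusted p of 1.00. Without old replicate 2 the difference was 1.50 and without young replicate 3 it was 3.89, so that its size rested on single libraries. The means were 1.46 ± 1.99 CPM (SD, n = 3) in young and 7.42 ± 7.72 CPM (n = 3) in old populations.

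Klf2 differed by 0.10 (SE 1.04), Myc by −0.17 (SE 0.27), Glis1 by −0.92 (SE 0.86) and Pou5f1 by −0.05 (SE 1.40) on the log2 scale, old over young. Each of these lay within its standard error or near it, and each had an edgeR adjusted p of 1.00. The direction of Klf2 turned without young replicate 2 (−0.45) or old replicate 3 (−0.50), that of Myc without young replicate 2 (0.01), and that of Pou5f1 without old replicate 2, old replicate 3 or young replicate 3 (0.67, 1.09 and 0.54). Without young replicate 3, Klf2 was at 2.00, and without old replicate 1 or young replicate 1 Myc was at −0.45. With either of the latter left out, the other stood alone on the shorter gene list and was fitted by the gene list term. Both fits thus took the group difference from the libraries of the longer list only. Glis1 ranged from −1.78 to −0.30 when each library was left out in turn. The median over all tested genes was −0.01.

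**Figure D2:**
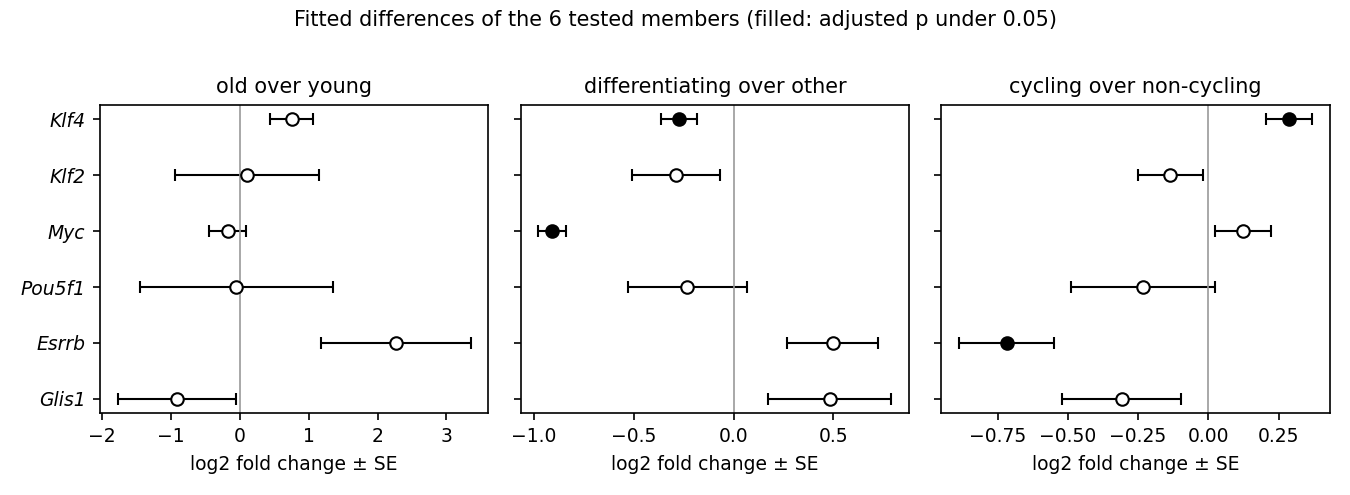
Fitted log2 fold changes of the 6 tested members with standard errors, for old over young populations (3 libraries each), differentiating over other cells (5 libraries) and cycling over non-cycling cells (6 libraries), with separate axes. Filled points have an adjusted p under 0.05, as for Myc at −0.91 in the middle panel, and no point of the first panel is filled.

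To set shares of cells against each other at equal depth, each cell was thinned to 5000 UMIs, which left out 539 young and 829 old cells. Klf4 was then found in 6.24 ± 2.14% (SD, n = 3) of young and 10.7 ± 1.95% (n = 3) of old cells, with no overlap. How many of all genes have no overlap in this measure was not computed. Thinning to equal total UMIs also leaves out the TMM factors. The exact two-sided permutation test gave p = 0.1, the smallest that 3 against 3 can give, and 0.5 after adjustment over the 5 genes tested. Klf2 was found in 12.2 ± 10.6% of young and 13.2 ± 5.67% of old cells, and Myc in 9.40 ± 0.975% and 10.3 ± 6.78%, both with an exact permutation p of 1.

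Esrrb was found in 0.681% of young and 3.46% of old cells on average at this depth (exact permutation p = 0.2, adjusted 0.5). Glis1 was found in 0.854% and 0.359% (exact permutation p = 0.3, adjusted 0.5). The old value of Esrrb came mainly from old replicate 2, with 7.52% of cells. With 3 populations a group, no share could reach an adjusted p under the threshold in this test.

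**Figure D3:**
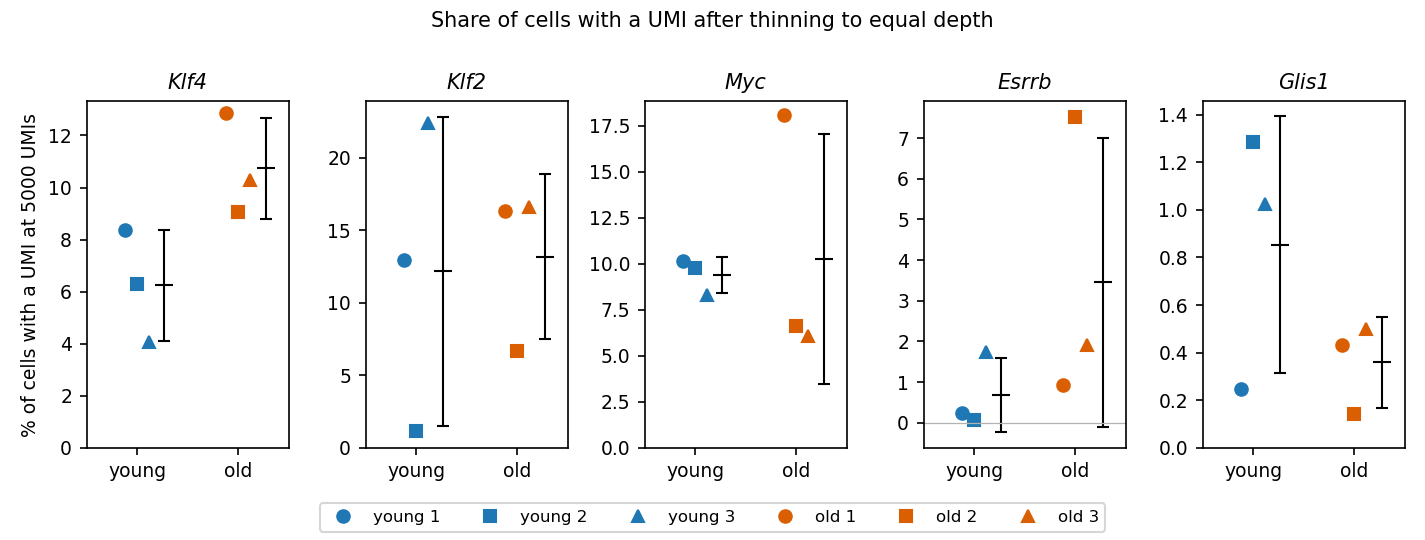
Share of cells with a UMI of each of the 5 tested genes after thinning every cell to 5000 UMIs, 1 symbol per library and 3 libraries per group, with the mean and SD in black at the right of each group. The young shares of Klf4, 4.07% to 8.36%, lie below the old ones, 9.05% to 12.9%, and the groups overlap for the other 4.

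Cells that had begun muscle differentiation were then compared with the remaining cells of the same library. A cell was called differentiating when it had a UMI of the muscle regulator Myog and UMIs of at least 4 of 10 sarcomere and muscle-enzyme genes, none of which is a member. There were 284, 1987 and 176 such cells in the young libraries and 49, 1144 and 6327 in the old ones. Old replicate 1, with fewer than 50, was left out of the fit. Myc was lower in differentiating cells, its relative Mycl was higher, and the other members moved little or unevenly.

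Myc fell in each library. In young replicates 1, 2 and 3 it stood at 13.4, 12.9 and 10.1 CPM in differentiating cells and at 24.2, 24.9 and 18.7 CPM in the others. In old replicates 1, 2 and 3 it stood at 13.8, 7.59 and 9.44 CPM against 41.2, 16.0 and 19.2 CPM. The highest differentiating level was below the lowest level of the other cells. Differentiating cells made up 3.27%, 18.4% and 1.63% of the young libraries and 0.483%, 13.1% and 50.5% of the old ones, and the part of this share in the level of whole libraries was not tested. In the other cells alone the young and old levels of Myc overlapped. The fitted log2 fold change was −0.91 (SE 0.07), with an edgeR adjusted p of 0.000333, and it remained called in all 11 alternative settings, at −1.01 to −0.76.

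Klf4 fell by 0.28 on the log2 scale (SE 0.09, edgeR adjusted p = 0.0451). It was lower in 5 of 6 libraries, at 9.80 to 24.8 CPM in differentiating cells against 9.19 to 31.3 CPM in the others. The call was kept in 5 of 11 alternative settings, and it was lost without any of young replicate 1 (adjusted p = 0.0591), young replicate 2 (0.0970), old replicate 2 (0.148) or old replicate 3 (0.171). It was also lost with another size factor (RLE, edgeR adjusted p = 0.0526). With at least 6 of the 10 genes required the edgeR difference was −0.06 (adjusted p = 0.763). Myc and Klf4 were thus the 2 of 6 tested members called, both lower, where 36.8% of 13497 genes were called, 20.9% lower.

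The remaining members were not called in this comparison. Klf2 differed by −0.29 (SE 0.22, edgeR adjusted p = 0.346) and was called only without young replicate 2, at −0.51 (adjusted p = 0.0240). Esrrb differed by 0.50 (SE 0.23, adjusted p = 0.122) and was higher in 5 of 6 libraries. It was called only without old replicate 3, at 0.79 (edgeR adjusted p = 0.0432). Glis1 was at 0.48 (SE 0.31) and Pou5f1 at −0.23 (SE 0.30), with edgeR adjusted p of 0.252 and 0.577.

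**Figure D4:**
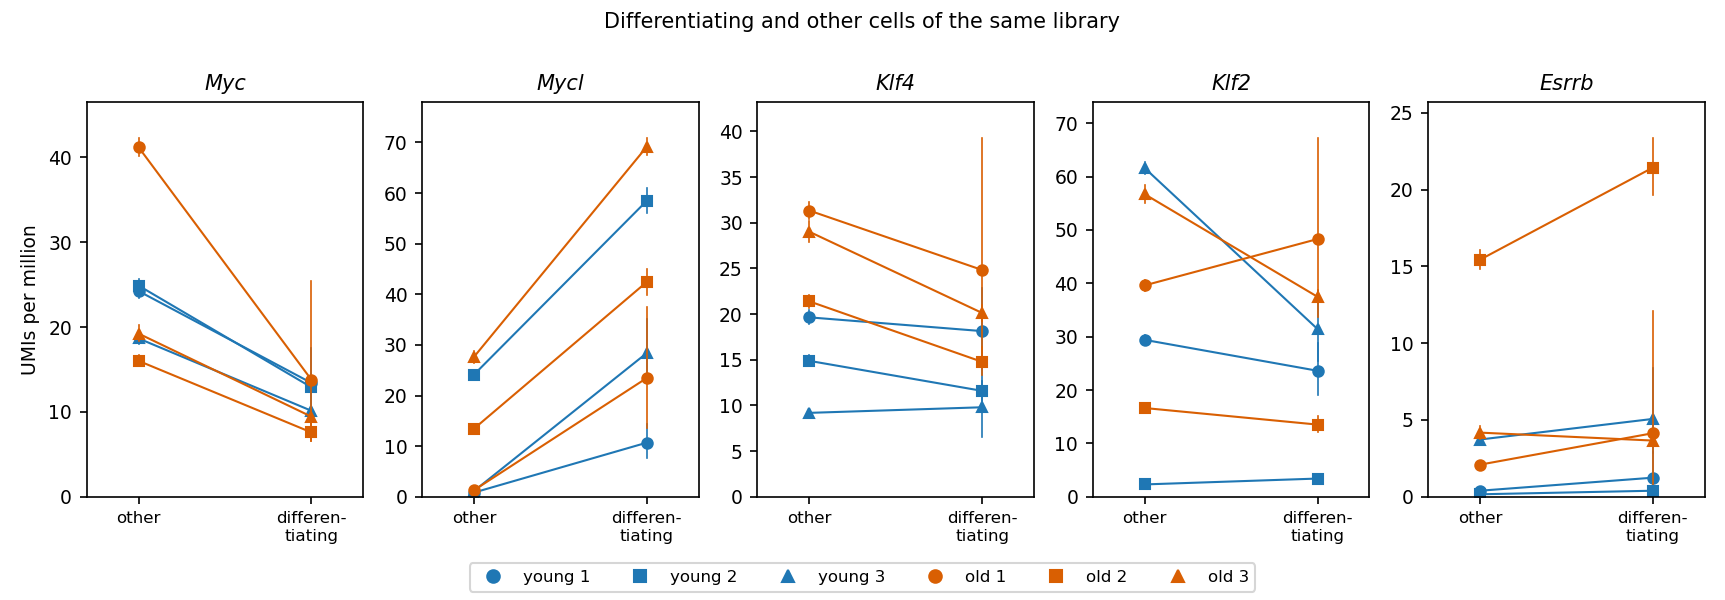
Level of Myc, Mycl, Klf4, Klf2 and Esrrb in differentiating and other cells, in CPM with exact 95% Poisson intervals, 1 line per library. Every line falls for Myc and rises for Mycl, and lines cross in direction for the other 3. The 49 differentiating cells of old replicate 1 are drawn but were not fitted.

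Mycl, a further Myc-family gene that forms dimers with Max, showed the opposite direction to Myc. It was at 1.12, 30.9 and 1.55 CPM in whole young libraries and 1.39, 17.5 and 49.98 CPM in old ones. In differentiating cells it stood at 10.7, 58.5 and 28.4 CPM (young) and 23.5, 42.4 and 69.1 CPM (old). In the other cells of the same libraries it stood at 0.826, 24.1 and 1.12 CPM and at 1.29, 13.4 and 27.6 CPM. The fitted difference was 2.31 (SE 0.61, edgeR adjusted p = 0.0403), higher in 6 of 6 libraries. The call was kept in 5 of 11 alternative settings, with adjusted p up to 0.107.

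Genes that Myc is known to activate were mostly lower in differentiating cells too. Of 24 such genes, 15 were called lower and 1 higher, with a median log2 fold change of −0.34 against −0.07 over all genes, of which 20.9% were called lower and 15.9% higher. Among them were the serine hydroxymethyltransferase Shmt1 (−0.70), spermidine synthase Srm (−0.67), the nucleolar chaperone Npm1 (−0.64), ornithine decarboxylase Odc1 (−0.63) and nucleolin Ncl (−0.61). The gene called higher, named after its value was seen, was the transferrin receptor Tfrc (0.29), called in 6 of 11 alternative settings. Of 14 tested partners and regulators of Myc, 2 were called higher and 1 lower, against 15.9% and 20.9% of all genes. These were Mycl, the deubiquitinase Usp28 that stabilizes Myc (1.09, SE 0.11) and the Max-binding repressor Mxi1 (−0.38, SE 0.10). Mxi1 was not called by edgeR with at least 2 panel genes required (adjusted p = 0.0727), with old replicate 1 kept (0.0587), without old replicate 3 (0.0539) or without young replicate 2 (0.101). Max itself was not called, at −0.13 (SE 0.08, edgeR adjusted p = 0.242).

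Relatives of the other members were called in both directions. Of 12 other Klf genes tested, 2 were called higher and 3 lower, near the share of 36.8% called among all genes. Klf5 was higher by 1.77 (SE 0.17), while Klf12, Klf6 and Klf7 were lower, at −0.68, −0.56 and −0.40. The second higher gene, named after its value was seen, was Klf10 (0.37). By edgeR, the call of Klf7 was lost without old replicate 2, old replicate 3 or young replicate 1 (adjusted p up to 0.0762), and that of Klf10 without young replicate 2, young replicate 3 or old replicate 2 (up to 0.0958). Of 7 other Sox genes, beside 15.9% of all genes called higher and 20.9% lower, Sox8 (3.45) and Sox6 (1.42) were called higher and 4 were called lower, namely Sox5 (−0.97), Sox4 (−0.73), the chondrogenic factor Sox9 (−0.64) and, named after its value was seen, Sox12 (−0.41). By edgeR, Sox8 was no longer called without old replicate 2 or young replicate 2 (adjusted p = 0.0637 and 0.0925). Sox6 was lost without old replicate 3, young replicate 1 or young replicate 3 (up to 0.105 by edgeR) and Sox12 without old replicate 2, old replicate 3 or young replicate 2 (up to 0.124). Esrrg, a receptor related to Esrrb, was higher (1.56), and the Glis1 relatives Glis3 (−1.20) and Glis2 (−0.36) were lower, the latter not without old replicate 2 or 3 (edgeR adjusted p = 0.0695 and 0.0731).

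Cycling cells were called from the expression of known S-phase and G2/M genes, none of which is a member, and compared with G1 cells in all 6 libraries. Differentiating cells were not removed here, nor cycling cells from the comparison of differentiating cells. Both comparisons thus drew on the same cells, and the part of one class in the differences of the other was not tested. Klf4 was higher and Esrrb lower in cycling cells, and Myc and Klf2 were not called. In G1 cells Esrrb stood at 0.611, 0.416 and 5.87 CPM (young) and 2.77, 18.9 and 4.33 CPM (old). In cycling cells it stood at 0.260, 0.0890 and 3.42 CPM and at 1.86, 12.2 and 3.66 CPM. Esrrb was lower in cycling cells of all 6 libraries, with a log2 fold change of −0.72 (SE 0.17, edgeR adjusted p = 0.00652), and remained called in 11 of 11 alternative settings.

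Klf4 stood at 19.9, 11.0 and 8.15 CPM in G1 cells of the young libraries and at 29.5, 17.3 and 20.4 CPM in those of the old. Its levels in cycling cells were 19.4, 16.0 and 9.36 CPM and 32.0, 25.4 and 26.4 CPM. Cycling cells were thus higher in 5 of 6 libraries, all but young replicate 1. The log2 fold change was 0.29 (SE 0.08, edgeR adjusted p = 0.0170). It was 0.12 in S against G1 cells (adjusted p = 0.135) and was lost without old replicate 2 (0.24, edgeR adjusted p = 0.0538). Klf4 and Esrrb were 2 of 6 tested members called, where 51.8% of 13389 genes were called, 22.9% higher and 28.9% lower.

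Myc differed by 0.12 (SE 0.10, edgeR adjusted p = 0.320) between cycling and G1 cells and was higher in 4 of 6 libraries. The 2 exceptions were young replicate 1 and old replicate 1, at 23.5 against 24.4 CPM and 38.9 against 47.1 CPM. Klf2 differed by −0.13 (SE 0.11, edgeR adjusted p = 0.355), with 0.11 in S against G1 cells. Glis1 was at −0.31 (SE 0.21) and Pou5f1 at −0.23 (SE 0.26), with edgeR adjusted p of 0.253 and 0.478.

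**Figure D5:**
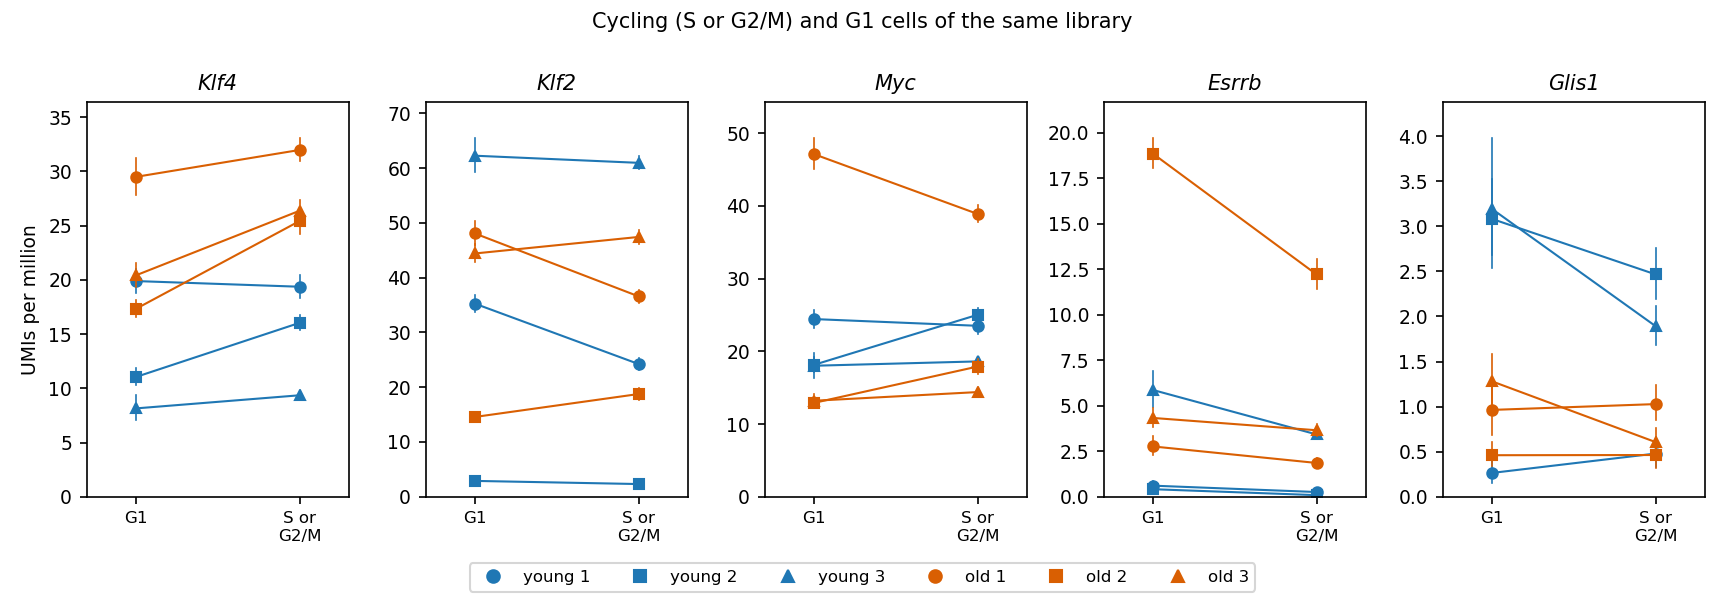
Level of Klf4, Klf2, Myc, Esrrb and Glis1 in G1 cells and in cells called S or G2/M, in CPM with exact 95% Poisson intervals, 1 line per library. The line of Esrrb falls in all 6 libraries and that of Klf4 rises in 5.

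Of the 24 genes that Myc activates, 22 were called higher in cycling cells and none lower by edgeR, with a median of 0.31 against −0.04 over all genes, of which 22.9% were called higher and 28.9% lower. Shmt1 (1.37), the ribosome assembly factor Nop58 (0.64), Srm (0.61) and the pyrimidine enzyme Cad (0.61) differed most. Among the partners and regulators of Myc, leaving out Aurka, which served to call the phases, 2 of 13 were called higher and 7 lower, against 22.9% and 28.9% of all genes. The former were Mxd3 (4.67) and, named after its value was seen, the ubiquitin ligase subunit Fbxw7 (0.16), and Mxd4 (−1.34) and Mycl (−0.78) were among the latter. Mxd3, Mxd4 and Mycl each bind Max. Fbxw7 was called in 4 of 11 alternative settings, and Mycl in 8, not without young replicate 2 or young replicate 3 or without the filter on low counts (edgeR adjusted p = 0.0500, 0.0513 and 0.0565). Of 16 chromatin regulators that favour or resist reprogramming and were not used to call the phases, 9 were called higher and 2 lower, beside the same shares of all genes. The histone chaperone subunit Chaf1a (2.14) and the methyltransferase Suv39h1 (1.38), both known as barriers to reprogramming, differed most, and the 2 lower genes, named after their values were seen, were Tet2 (−0.47) and Kdm4c (−0.33).

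Whether these class differences themselves differed between old and young populations was tested as an interaction. No member was called, with edgeR adjusted p of 1.00 for all 6 in both comparisons. The largest interaction among members for cycling cells was 0.61 (SE 0.31, unadjusted p = 0.0777) for Esrrb. For differentiating cells the interactions were 0.76 (SE 0.59) for Glis1, −0.74 (SE 0.42) for Esrrb, −0.47 (SE 0.63) for Pou5f1, −0.31 (SE 0.16) for Klf4, −0.14 (SE 0.49) for Klf2 and −0.10 (SE 0.15) for Myc, with unadjusted edgeR p of at least 0.0964. Over all genes edgeR called 0% in either, with 279 genes for cycling and 453 for differentiating cells at an unadjusted p under 0.05.

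Other genes of the pluripotency network were spread around the detection limit. Of 23 such genes, 7 were at or under the limit in all 6 libraries and 6 were above it in all. In single libraries 9 to 14 of the 23 were at or under it. Dppa3, Tdgf1, Nr0b1, Tcl1 and Otx2, named after their values were seen, had 0 counts in every library. Tbx3, which is also a limb patterning factor, was at 7.40, 2.50 and 6.47 CPM in young and 19.0, 1.73 and 1.37 CPM in old libraries, with overlap.

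Lefty1, a secreted Nodal inhibitor and marker of pluripotent cells, had 0, 7 and 5 counts in the young libraries and 29, 474 and 754 in the old ones. The highest old level was 4.13 CPM, and every old library lay above every young one. Among all tested genes 5.93% had no overlap. Lefty1 passed the filter on low counts only through the old libraries, so no p-value and no fold change is given for it.

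RNA was found for genes of the LIF pathway, which keeps mouse stem cells pluripotent through Stat3 and Klf4. The activity of the pathway was not measured. All 8 genes of the list were above the limit in all 6 libraries, and none was called between old and young. The ligand Lif, named after its values were seen, had 186, 30 and 132 counts in young libraries and 754, 1343 and 292 in old ones. It was the 1 gene of the 8 whose groups did not overlap, beside 5.93% of all tested genes, and 5.02% with the old libraries higher. Its log2 fold change was 2.82 (SE 0.98), with an unadjusted p of 0.0302 and an edgeR adjusted p of 1.00. Its receptor Lifr, also named after its values were seen, was at 4.41, 12.5 and 18.6 CPM in young and 4.04, 7.24 and 3.65 CPM in old libraries, with overlap. The log2 fold change of Lifr was −1.15 (SE 0.39), with an unadjusted p of 0.0273 and an edgeR adjusted p of 1.00. In differentiating cells edgeR called 2 of the 8 higher and 2 lower, against 15.9% and 20.9% of all genes: Stat3 (log2 fold change 0.85) and the receptor subunit Il6st (0.64) were higher, and the feedback inhibitor Socs3 (−1.05) and the kinase Jak1 (−0.38) lower. In cycling cells it called 2 of the 8 higher and 3 lower, against 22.9% and 28.9% of all genes. Socs3 (0.40) and the phosphatase Ptpn11 (0.14) were higher, and Stat3 (−0.82), the kinase Tyk2 (−0.43) and Il6st (−0.21) lower. The Il6st call in cycling cells was lost without old replicate 2, old replicate 3 or young replicate 2 (edgeR adjusted p = 0.0517, 0.0669 and 0.0748), and that of Socs3 with S-phase cells alone set against G1 (edgeR adjusted p = 0.0886). Whether the Ptpn11 call (edgeR adjusted p = 0.0364) held under other settings is not given here.

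Markers of other cell types that could carry Klf4 and Klf2 were present at different levels. Summed endothelial markers stood at 2.19, 4.09 and 9.66 CPM in young libraries and 4.28, 1.67 and 2.68 CPM in old ones, with 6 or 7 of 8 markers above the limit and Tie1 at or under it in 5 libraries. Egfl7 alone stood at 1.01 to 8.20 CPM of these sums. Summed fibroadipogenic markers, of connective-tissue progenitors, stood at 283.2 to 445.6 CPM in young and 299.2 to 510.8 CPM in old libraries. In a library 8 or 9 of 10 were above the limit, with Lum at or under it in all 6. Gsn alone stood at 149.2 to 316.7 CPM of these sums. Col3a1 reached 131.8, Ly6a 126.5, Cd34 119.4 and Smoc2 102.7 CPM in single libraries. Pdgfra reached at most 1.97, Dcn 1.49, Pi16 0.165 and Dpt 0.101 CPM. Summed mural markers stood at 19.4 to 92.3 CPM (young) and 14.7 to 45.1 CPM (old), and those of immune cells are given above. The part of such cells in the levels of Klf4 and Klf2 was not tested. Immediate-early genes are known, like Klf2 and Myc, to be induced fast by serum and handling, and all 18 of their list were above the limit in all 6 libraries. Jun alone was at 2963 CPM in young replicate 2 and at 78.8 to 155.3 CPM in the others. Without Jun the list summed to 565.8, 355.9 and 317.1 CPM in young libraries and 589.7, 325.4 and 470.5 CPM in old ones. In young replicate 2 Fos (0.817 CPM), Ier3 (9.65 CPM) and Nr4a1 (0.776 CPM) were at their lowest of the 6 libraries. So were Fosb (0.217 CPM), Egr2 (0.290 CPM), Ier2 (14.3 CPM), Ccn1 (25.4 CPM) and Maff (1.78 CPM). Dusp1 (104.0 CPM) was, like Jun, at its highest there, and the rest of the list was at neither end. The part of such induction in the levels of Klf2 and Myc was not tested.

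Across single cells within libraries, the likeness of other genes to Klf2 and Myc was weak. The 3 genes most like Klf2 among 6121 were Thbs1, Rhob and Actg1, with mean Pearson correlations of 0.07, 0.06 and 0.06 over the 6 libraries. Those most like Myc were Hmga2, Ccnd1 and Cited2, each at 0.07. For Klf4, whose mean of 19.8 CPM was just under the limit of 20 set for this description, Cald1, Ahnak and Hmga2 stood first, at 0.05, 0.05 and 0.04. The cells share their library, and such values in sparse counts are given as a description only.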

How the data were processed

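Per the labels' protocols, cells were loaded on the 10x Genomics 3′ platform. The authors deposited raw UMI counts per gene and called barcode for each library, made with Cell Ranger 7.0.0 (young and old replicate 1) or 7.2.0 (the other 4), per the file headers. The submitters' processing notes name Cell Ranger 7.2.0, Seurat and the mm10 build; the intron setting is not given in the sources used here. The gene lists held 21849 or 32285 features, and the 21485 shared ones, with 98.5% to 99.9% of the UMIs, were used. Coordinates of genes are from a GRCm38 annotation.

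Of 62849 deposited barcodes, cells with at least 1000 UMIs, at least 500 genes and at most 15% mitochondrial UMIs were kept, which left out 801 barcodes by UMIs and 375 by the other limits. No doublet caller was run. Counts were summed per library, or per library and cell class, and tested with edgeR 4.0.16 (quasi-likelihood, TMM, filterByExpr; R 4.3.3), two-sided, with Benjamini-Hochberg adjustment over all tested genes at 0.05. Terms were gene list and group, or library and class. DESeq2 1.42.0 was an alternative. Phases were scored with scanpy 1.11.5 from 42 S and 53 G2/M genes. Shares used an exact permutation test (scipy 1.17.1). The edgeR steps were tested on simulated data.

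The members and all gene lists were chosen with earlier results of these data known. Named were all members, of each related list up to 4 called genes with the largest fold change and the 2 genes of highest level, and the 3 genes most like each member over 20 CPM. Replicate numbers were not taken to pair the libraries, since same-numbered libraries correlated at 0.378, 0.224 and −0.0814 in their deviations from the group means.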

Additional observations from a re-analysis of the deposited data

Results flagged for a closer look

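Noncoding neighbours of Sox2 and Myc were present in the longer gene list of 4 libraries, which the comparisons did not use, and were counted over all deposited barcodes. Sox2ot, inside which Sox2 lies, had 56 counts in young replicate 2 and 25 in young replicate 3, and 16 in each of old replicates 2 and 3, all above the limit of 3 counts. Young replicate 2, highest in Sox2ot at 0.285 CPM, is also the library with 147 of the 161 Sox2 counts. Pvt1, the noncoding gene next to Myc, was more abundant: 14282 and 15349 counts (young replicates 2 and 3) against 13635 and 13349 (old replicates 2 and 3), or 72.0 to 80.3 CPM. Over the same libraries Myc ranged from 14.0 to 22.5 CPM.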

How the results depend on the processing

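Between old and young, DESeq2 called 219 genes where edgeR called 1, and edgeR called 0 with the longer gene list only and 0 without the gene list term. Leaving out each library in turn gave 0 to 3 called genes, 0 without young or old replicate 1 and 3 without young replicate 3. Without young or old replicate 1 the group difference came from the libraries of the longer list only, since the gene list term fitted the other. With the replicate number as a block, 1 gene was called, Klf4 differed by 0.77, Esrrb by 2.52 and Klf2 by 0.76 (0.10 without the block), and no call of a member changed; old replicate 3 correlated better with young replicate 2 (0.276) than with its own number. Left out in turn, the libraries gave −0.50 to 2.00 for Klf2, −0.45 to 0.013 for Myc and −1.35 to 1.09 for Pou5f1 (log2, old over young), and Klf2 was at 0.11 in S against G1 cells against −0.13 in all cycling cells. The difference in the share of cells with a UMI, old minus young, was −0.159 percentage points for Klf2 with the longer list only and −4.50 to 6.13 with a library left out. For Myc it was −0.928 without thinning, −2.67 with the longer list only and −3.04 to 2.95 with a library left out. The causes were not tested. Counts of genes called in differentiating and cycling cells stayed within 1.5 times in 11 of 11 settings each, 1 of them, with old replicate 1 kept among differentiating libraries, chosen after seeing the data (5295 against 4961 genes). Of the settings of named genes, 389 kept their call and direction for cycling cells, 17 were no longer past the threshold and 1 turned. For differentiating cells these numbers were 357, 37 and 0, and 2 came past it. Depth limits what can be said of Mycn, Nanog and Zfp42, which had at most 25 counts in a library.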

Other observations

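Chromatin regulators and immediate-early genes gave further differences between cell classes by the same edgeR test. Of 18 chromatin regulators known to favour or resist reprogramming, 7 were called lower in differentiating cells and none was called higher, against 20.9% and 15.9% of all genes. The subunits Chaf1a and Chaf1b of the replication-coupled histone chaperone differed by −1.09 (SE 0.22) and −1.07 (SE 0.25), and Uhrf1, which guides maintenance of DNA methylation, by −0.91 (SE 0.28). Chaf1b was not called by edgeR without young replicate 1 or 2 (adjusted p = 0.0593 and 0.0569). Uhrf1 was not called with RLE size factors (edgeR adjusted p = 0.0507), with no filter on low counts (0.0553), or without young replicate 1, 2 or 3 (0.127, 0.143 and 0.0667). The histone methyltransferase Suv39h1 differed by −0.43 (SE 0.08).

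Of 18 immediate-early genes, 3 were called higher and 5 lower in differentiating cells, against 15.9% and 20.9% of all genes. Egr1 (1.07, SE 0.31) and Junb (0.60, SE 0.09) were higher, and Ier3 (−1.50, SE 0.14) and Fosl1 (−1.21, SE 0.13) were lower. The call of Egr1 was lost by edgeR with no filter on low counts (adjusted p = 0.0692) and without old replicate 2 (0.114), young replicate 1 (0.0972) or young replicate 2 (0.129). In cycling cells 1 was called higher, Fosl1 (0.70, SE 0.12), and 10 lower, against 22.9% and 28.9% of all genes. Among the lower were Egr3 (−0.69), Atf3 (−0.68) and Egr1 (−0.68), the last not called in S against G1 cells (edgeR adjusted p = 0.0781). Of 8 other Sox genes tested in cycling cells, 1 was called higher, Sox11 (0.50, SE 0.13), and 5 lower (22.9% and 28.9% of all genes), with Sox8 (−1.21, SE 0.21) and Sox6 (−1.02, SE 0.18) the farthest from 0.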
